A study of Homo sapiens with 9 samples.

Results

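Transcripts of 10 genes of iron uptake, storage, release, export and control were followed in H1299, an established human lung cancer cell line, after CRISPR editing of BCKDK, the kinase that inhibits the branched-chain ketoacid dehydrogenase complex. The genes were STEAP1, STEAP2, STEAP3, TFRC, SLC11A2, FTH1, FTL, NCOA4, SLC40A1 and IREB2, matched by name among the 58735 genes of the deposited table. All 10 were found, and all 10 passed the filter on low values described with the results. KO1 and KO2 are each 1 monoclonal line with a BCKDK knockout, isolated by limited dilution, and Vector cells are H1299 with a wild-type label that received the lentiCRISPR v2 plasmid. Each of these 3 groups has 3 RNA sequencing libraries. Vector is not described as monoclonal, so editing and single-cell cloning cannot be told apart, and whether libraries within a group were grown separately is not stated, so p-values reflect the spread between libraries, which may be technical. The genes were chosen by their FPKM differences between the knockout lines and Vector, with earlier results of these libraries in view. STEAP1 heads the list for its difference, and its values are therefore given as a description without a test. The p-values given for other genes of the list describe their spread and are no independent support for the choice.

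Most cells take up iron bound to transferrin through the transferrin receptor TFRC. In the endosome the iron is reduced by a metalloreductase of the STEAP family and carried into the cytosol by the divalent metal transporter SLC11A2, also called DMT1. Surplus iron is kept in ferritin, a shell of FTH1 and FTL chains, which NCOA4 delivers to the lysosome for breakdown, while ferroportin, the product of SLC40A1, exports iron. Iron regulatory proteins, one of them encoded by IREB2, bind hairpins called iron-responsive elements when iron is scarce. Binding protects TFRC transcripts from decay and blocks translation of ferritin and ferroportin transcripts, so transcript levels of ferritin and ferroportin do not show how much protein is made.

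The values are FPKM, which divides reads by exon length and by a library depth. Recovered reads were nearly equal, at 16002212 to 17090445 per library, but the depth used for FPKM was not this total. FPKM times exon length per read ran from 55.8 in KO2 replicate 2 to 62.7 in KO1 replicate 1. These libraries had 16654780 and 16838601 recovered reads. BCKDK stood at 1.67 to 2.06 FPKM in KO1 and 0.287 to 0.628 FPKM in KO2, against 12.9 to 17.5 FPKM in Vector. Replicate 3 differed most within Vector and within KO2 and is the library said below to stand apart, with chi-square per degree of freedom of at least 44.3 against other libraries of the same group and at most 6.84 among the remaining pairs. The labelled adenocarcinoma type was not reflected in all of its markers. NKX2-1, SFTPB, SFTPC, EPCAM and CDH1 averaged at most 0.0716 FPKM in every group, and KRT7 and NAPSA at most 0.906 FPKM. By contrast, KRT18 averaged 331 FPKM in KO1, 92.2 FPKM in KO2 and 63.2 FPKM in Vector. KRT8 averaged 120 FPKM in KO1, and KO2 and Vector were alike at 16.18 and 16.21 FPKM. The 7 macrophage, 7 erythroid, 6 fibroblast and 4 endothelial markers were each below 1 FPKM in all libraries. Summed hepatocyte markers reached 12.5 to 13.3 FPKM in KO1, 4.72 to 5.39 FPKM in KO2 and 1.51 to 2.14 FPKM in Vector, nearly all of it SERPINA1, with TTR at 0 throughout.

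STEAP1 and STEAP2, neighbours on chromosome 7, were lower in both knockout lines, TFRC and FTH1 were higher in both, and the remaining genes were called in KO1 or in neither. Differences below are in log2(FPKM + 1), a scale that understates the change of low genes. They come from 1 limma fit of all 9 libraries over 16426 genes, those averaging 0.5 FPKM or more, and calls required a p below 0.05 after Benjamini-Hochberg adjustment. Of the 9 genes tested, 3 were called higher and 4 lower in KO1 against Vector, where 34.1% of all fitted genes were called, 17.4% higher and 16.7% lower. In KO2 against Vector 2 were higher and 1 was lower, where 27.9% of all genes were called, 12.9% higher and 15.0% lower. In KO2 against KO1 2 were higher and 1 was lower, with 30.9% of all genes called, 14.5% higher and 16.4% lower. SLC40A1 is 1 of the 4 lower genes in KO1 and 1 of the 2 higher in KO2 against KO1, and it passed the filter only through KO2 and Vector. Nothing is read from these counts, because the genes were listed with the results known. The comparisons with Vector share its libraries, so similar values in KO1 and KO2 are not independent. Without both libraries that stood apart, 56.8% of all fitted genes were called in KO1 and 49.5% in KO2. The share was 47.7% in KO2 against KO1. Both libraries were picked for their distance from their own group, so leaving them out narrows the spread. Calls from that setting are therefore no further support.

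**Figure D1:**
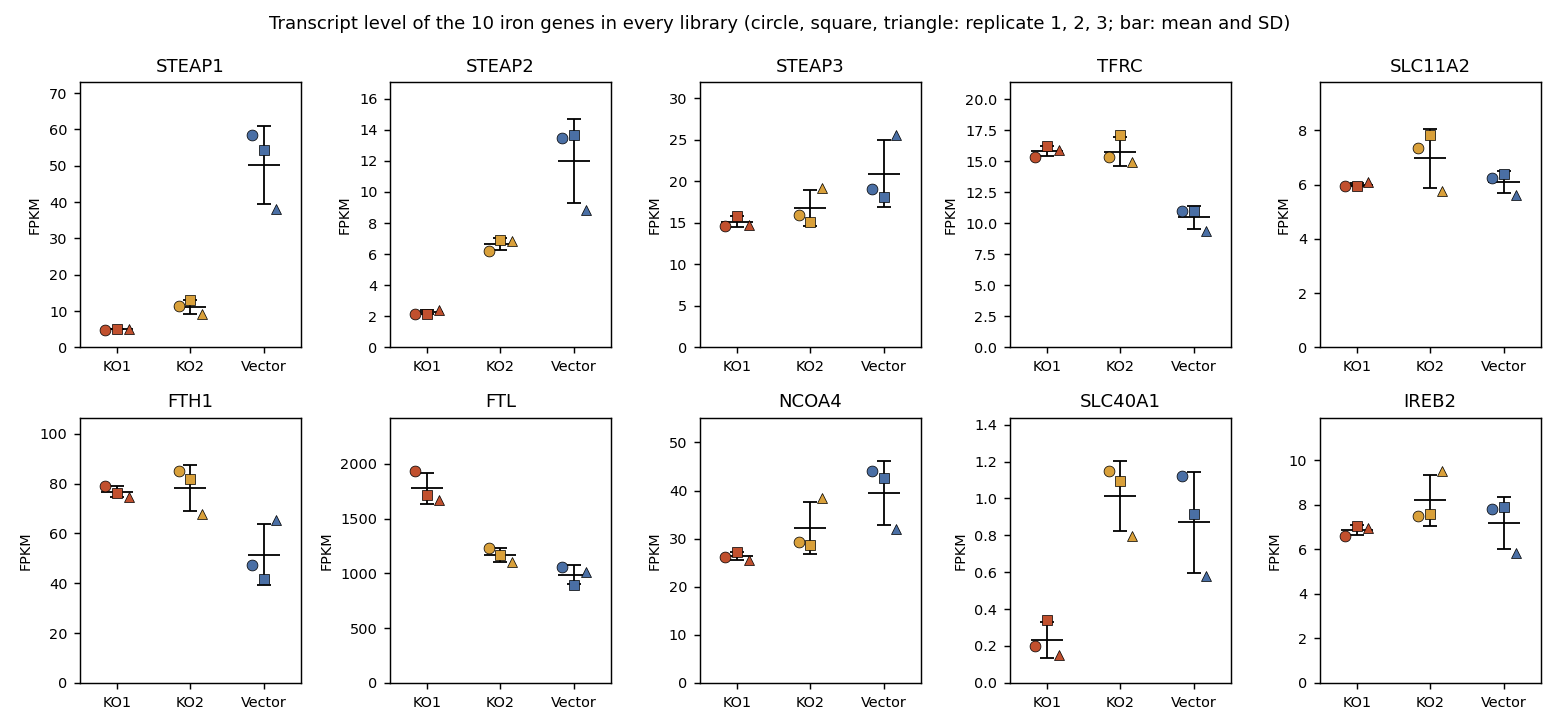
FPKM (y axis, from 0) of each of the 10 genes in the 3 KO1, 3 KO2 and 3 Vector libraries, with symbols for replicates and bars for the mean and SD. STEAP1 lies between 4.94 and 13.0 FPKM in the 6 knockout libraries and between 38.1 and 58.4 FPKM in Vector, while TFRC is above all Vector values in every knockout library.

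STEAP1 (ENSG00000164647, chromosome 7, 90154375 to 90164829 of hg38, plus strand) encodes a six-transmembrane family member that is abundant in prostate and several other cancers and lacks the NADPH-binding reductase domain of its relatives. It stood at 4.94, 5.18 and 5.10 FPKM in KO1, at 11.4, 13.0 and 9.12 FPKM in KO2 and at 58.4, 54.3 and 38.1 FPKM in Vector. Every KO1 library lay below every KO2 library, and every KO2 library below every Vector library. The KO1 mean was 0.101 of the Vector mean and the KO2 mean 0.222 of it. The differences were -3.06 and -2.07, the 15th and 60th lowest of 16426 genes. In reads, the groups held 405 in KO1, 944 in KO2 and 4144 in Vector over 3 libraries each. Without Vector replicate 3, the lowest Vector library, and KO2 replicate 3, the differences were -3.24 and -2.12.

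The stretch upstream of STEAP1 is shown because STEAP1 and STEAP2 were lower together. It lies at chr7:90154219-90154374 on the plus strand of GRCh38.p14, ends 1 base before the first annotated exon, is taken from RefSeq, and has no capitals because none of the motifs searched occurs in it.
STEAP1 upstream: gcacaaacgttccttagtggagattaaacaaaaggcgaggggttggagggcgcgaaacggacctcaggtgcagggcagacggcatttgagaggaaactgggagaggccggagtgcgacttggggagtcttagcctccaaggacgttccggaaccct
The motifs were CACGTG, the E-box bound by MYC and MAX, TGANTCA, the AP-1 site, and TGACNNNGC, the core of the antioxidant response element, searched on both strands in the 250 bases before each start. The letters of TGANTCA and TGACNNNGC can overlap. Of 35116 RefSeq promoters, 6.34%, 6.57% and 10.91% held them. Among 15 entries for 9 of the 10 genes, the AP-1 letters occurred in 1 entry each of NCOA4 and SLC11A2, and the other motifs in none. FTH1 had no entry. The STEAP2 entries lie apart from the stretch shown, at chr7:90211490-90211739 and chr7:90213570-90213819.

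STEAP2 (ENSG00000157214, chromosome 7, 90167590 to 90238137, plus strand), a ferric and cupric reductase, begins 13.2 kb downstream of the STEAP1 start. It stood at 2.18, 2.18 and 2.40 FPKM in KO1, at 6.20, 6.93 and 6.82 FPKM in KO2 and at 13.5, 13.6 and 8.85 FPKM in Vector. The 3 groups did not overlap, in the same order as for STEAP1. STEAP2 fell by 1.98 in KO1 (SE 0.15, limma adjusted p = 1.75e-05) and by 0.74 in KO2 (SE 0.15, limma adjusted p = 0.00628), and it was higher in KO2 than in KO1 by 1.23 (limma adjusted p = 0.000385). The ratio of STEAP1 to STEAP2, both in FPKM, averaged 2.26 ± 0.129 in KO1, 1.68 ± 0.299 in KO2 and 4.20 ± 0.193 in Vector (SD, n = 3 each). All 6 knockout values of this ratio lay below all 3 Vector values. No exon of another annotated gene overlaps STEAP1 or STEAP2. STEAP2-AS1, an antisense gene whose span overlaps both, had 13 reads over the 9 libraries.

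Other genes around STEAP1 were also lower. Of the 53 other fitted genes that start within 5 Mb, 0 were called higher and 29 lower in KO1 (median -0.45), and 3 were higher and 14 lower in KO2 (median -0.23). Over all fitted genes 17.4% were higher and 16.7% lower in KO1, and 12.9% were higher and 15.0% lower in KO2. Of the lower neighbours, 5 in KO1 and 4 in KO2 averaged under 0.5 FPKM in that line and so passed the filter through other groups. The median over all fitted genes was 0.01 in KO1 and -0.0049 in KO2. In the nearest 500 kb, the tight-junction gene CLDN12 differed by -1.13 in KO1 and -0.80 in KO2 and passed in both. The highest of the 5 other fitted genes there was CDK14, a cyclin-dependent kinase 312 kb away. CDK14 measured 0.15 in KO1 and -0.14 in KO2 and passed in neither. Over the whole 5 Mb the lowest gene was AC003092.1, below STEAP1 at -4.02 in KO1 and -4.00 in KO2. Another fit subtracted each library's median over fitted genes with midpoints within 5 Mb, the other STEAP gene included. For STEAP1 those medians differed from Vector by -0.53 in KO1 and -0.27 in KO2. After subtraction STEAP1 stood at -2.52 in KO1 and -1.80 in KO2. STEAP2 then stood at -1.44 in KO1 (limma adjusted p = 5.72e-06). In KO2 it stood at -0.46 (limma adjusted p = 0.00536), against -0.74 without the subtraction.

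**Figure D2:**
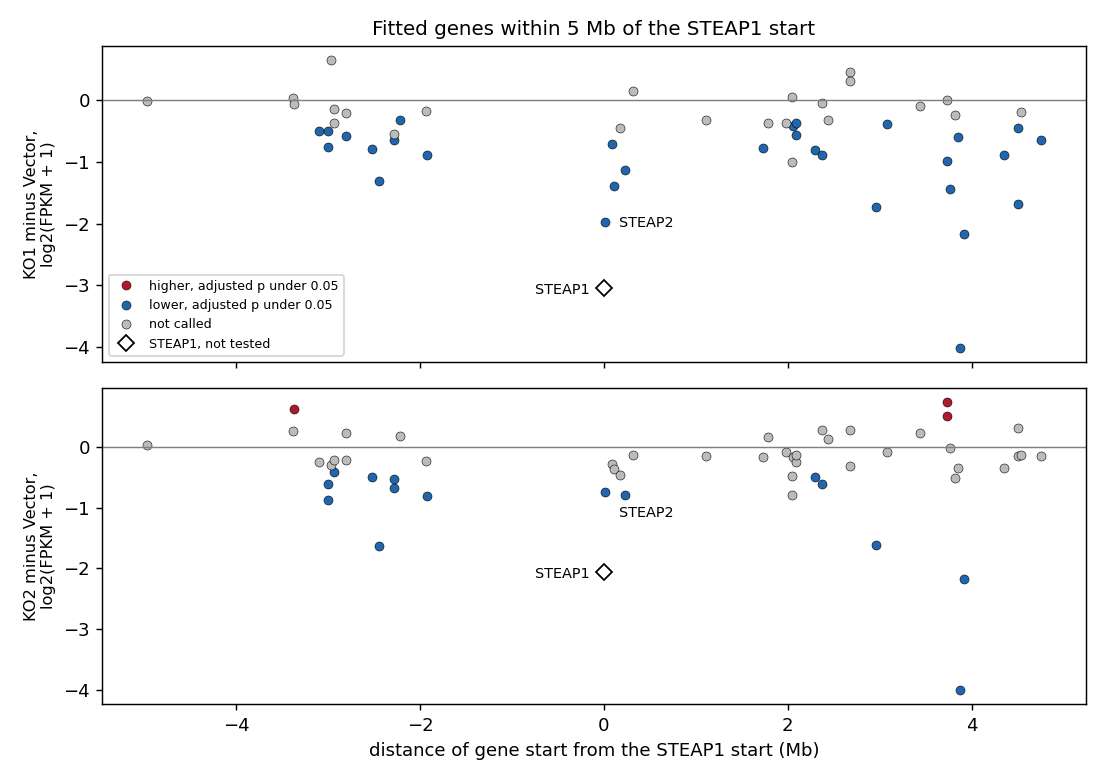
Difference from Vector in log2(FPKM + 1) (y axis) of fitted genes by distance of their start from the STEAP1 start in Mb (x axis), with KO1 above KO2, 1 point per gene, coloured by the limma call, and STEAP1 as an open diamond. STEAP1 lies at -3.06 and -2.07, below the neighbours' medians of -0.45 and -0.23, while CDK14 lies near 0. AC003092.1 lies lower than STEAP1 in both lines, at -4.02 and -4.00.

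STEAP3 (ENSG00000115107, chromosome 2, 119223831 to 119265652, plus strand), the endosomal ferrireductase of the transferrin cycle, changed less. It stood at 14.7, 15.9 and 14.8 FPKM in KO1, at 15.9, 15.1 and 19.2 FPKM in KO2 and at 19.0, 18.1 and 25.5 FPKM in Vector. Vector replicate 3 was the highest of the 9 libraries, and KO2 overlapped Vector. STEAP3 fell by 0.43 in KO1 (SE 0.14, limma adjusted p = 0.0442). Its value of -0.29 in KO2 did not pass (limma adjusted p = 0.157). The KO1 call was lost without Vector replicate 3 (-0.28, limma adjusted p = 0.0592) and also without Vector replicate 1 (-0.48), KO1 replicate 1 (-0.41), KO1 replicate 2 (-0.46), KO1 replicate 3 (-0.41), KO2 replicate 1 (-0.43) or KO2 replicate 2 (-0.43), with a highest limma adjusted p of 0.123. Without both libraries that stood apart STEAP3 passed in KO1 at -0.28 (limma adjusted p = 0.00447). In KO2 it passed at -0.24 (limma adjusted p = 0.014), 1 of 2 among 24 other settings in which it passed there. Without both libraries 56.8% of all fitted genes were called in KO1 and 49.5% in KO2. The KO1 call was also lost with no filter (limma adjusted p = 0.077) and in a fit of KO1 and Vector alone (limma adjusted p = 0.0541). STEAP3-AS1 covers 10.96% of STEAP3's exon bases on the opposite strand and had 131 reads over the 9 libraries, against 12194 for STEAP3. STEAP4, the remaining reductase of the family, averaged at most 0.0246 FPKM in each group and was not fitted.

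Among the uptake genes TFRC rose in both lines and SLC11A2 passed in neither. TFRC (ENSG00000072274, chromosome 3, 196027183 to 196082189, minus strand) stood at 15.4, 16.2 and 15.9 FPKM in KO1, at 15.3, 17.1 and 15.0 FPKM in KO2 and at 11.02, 11.04 and 9.42 FPKM in Vector. Every knockout library lay above every Vector library, and the knockout lines overlapped. The KO1 and KO2 means were 1.51 times the Vector mean. TFRC rose by 0.56 in KO1 (SE 0.10, limma adjusted p = 0.00251) and by 0.55 in KO2 (SE 0.10, limma adjusted p = 0.00347). It measured -0.01 in KO2 against KO1 (95% interval -0.23 to 0.22, limma adjusted p = 0.968). SLC11A2 (ENSG00000110911, chromosome 12, 50979401 to 51028566, minus strand) stood at 5.97, 5.96 and 6.08 FPKM in KO1, at 7.35, 7.82 and 5.75 FPKM in KO2 and at 6.25, 6.40 and 5.62 FPKM in Vector. KO2 replicate 3 was the lowest KO2 library, and all groups overlapped. Its values of -0.02 in KO1 and 0.16 in KO2 did not pass (limma adjusted p = 0.931 and 0.328). Without both libraries that stood apart it passed in KO2 at 0.23 (limma adjusted p = 0.0135), where 49.5% of all fitted genes were called. Without KO2 replicate 3 alone SLC11A2 was higher in KO2 than in KO1 by 0.29 (limma adjusted p = 0.0405). Of 24 other settings, it passed in KO2 against Vector under 2 and in KO2 against KO1 under 3.

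Iron-responsive elements of TFRC, of ferritin and of ferroportin are shown because iron regulatory proteins act through them in opposite ways, and transcripts of both kinds are described here. They were found by the letters CNNNNNCAGTGN followed by 5 bases that pair with the 5 before the loop, allowing G with U, on the transcript strand. Each is printed as RNA with its 6-base loop in capitals, from GENCODE 29 transcripts on GRCh38.
TFRC 3' UTR, chr3:196050980-196051006, minus strand: auuaucggaagCAGUGCcuuccauaau
TFRC 3' UTR, chr3:196050576-196050602, minus strand: auuaucgggagCAGUGUcuuccauaau
TFRC 3' UTR, chr3:196050511-196050537, minus strand: uguaucggagaCAGUGAucuccauaug
TFRC 3' UTR, chr3:196050464-196050490, minus strand: auuaucgggaaCAGUGUuucccauaau
FTH1 5' UTR, chr11:61967575-61967601, minus strand: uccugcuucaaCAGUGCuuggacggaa
FTL 5' UTR, chr19:48965336-48965362, plus strand: ucuugcuucaaCAGUGUuuggacggaa
SLC40A1 5' UTR, chr2:189580662-189580688, minus strand: aacuucagcuaCAGUGUuagcuaaguu
The search found 4 sites in TFRC and 1 each in FTH1, FTL and SLC40A1. Of 19684 protein-coding genes searched over whole transcripts, 1.478% held such letters. The other 6 genes had no match to these letters in their transcripts. The search says nothing about elements with another shape in any of the 10 genes, TFRC included.

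Of the ferritin chains, FTL differed between the lines. FTL, the light chain (ENSG00000087086, chromosome 19, 48965301 to 48966878, plus strand), was the most abundant of the 10 transcripts in every group. It stood at 1936, 1718 and 1672 FPKM in KO1, at 1229, 1168 and 1105 FPKM in KO2 and at 1057, 892 and 1015 FPKM in Vector. The 3 groups did not overlap. FTL rose by 0.85 in KO1 (SE 0.13, limma adjusted p = 0.00121), 1.80 times the Vector mean. Its value of 0.24 in KO2 did not pass (limma adjusted p = 0.200), and it was lower in KO2 than in KO1 by a difference of -0.60 (limma adjusted p = 0.00776). With neighbours' medians subtracted FTL measured 0.54 in KO1 (limma adjusted p = 0.0068). In KO2 the direction turned, at -0.10 (limma adjusted p = 0.546). With no filter on low values the KO1 call and the call between the lines were lost (limma adjusted p = 0.0547 and 0.168). With quantile normalization it passed in KO2 at 0.38 (limma adjusted p = 0.0036), and the difference between the lines was -0.30. FTL passed in KO2 under 2 of 24 other settings, quantile normalization and library weights.

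FTH1, the heavy chain with ferroxidase activity (ENSG00000167996, chromosome 11, 61959718 to 61967660, minus strand), was higher in both lines. It stood at 79.0, 76.2 and 74.7 FPKM in KO1, at 85.1, 81.7 and 67.8 FPKM in KO2 and at 47.4, 41.6 and 65.4 FPKM in Vector. All knockout libraries lay above all Vector libraries, with KO2 replicate 3 and Vector replicate 3 closest to each other. FTH1 rose by 0.59 in KO1 (SE 0.16, limma adjusted p = 0.0219) and by 0.61 in KO2 (SE 0.16, limma adjusted p = 0.0223). The KO1 call was lost without Vector replicate 1 (0.55), Vector replicate 2 (0.45), KO1 replicate 1 (0.57), KO1 replicate 2 (0.59) or KO1 replicate 3 (0.61), with a highest limma adjusted p of 0.0779. The KO2 call was lost without Vector replicate 1 (0.57), Vector replicate 2 (0.48), KO2 replicate 1 (0.55) or KO2 replicate 2 (0.58), with a highest limma adjusted p of 0.0762. Scaling by library total (0.50, limma adjusted p = 0.052) and quantile normalization (0.39, limma adjusted p = 0.0654) ended the KO1 call, and a fit of KO2 and Vector alone ended the KO2 call (limma adjusted p = 0.0705). Without both libraries that stood apart FTH1 was higher by 0.77 and 0.89 (limma adjusted p = 0.000108 and 0.000139). There 56.8% of all fitted genes were called in KO1 and 49.5% in KO2. With neighbours' medians subtracted FTH1 measured 0.34 in each line and passed (limma adjusted p = 0.016 in KO1 and 0.0183 in KO2). The level of FTH1 is uncertain, since 62.4% of its exon bases are shared with BEST1 on the opposite strand and reads there could have been split or left out. BEST1 itself had 56 reads over the 9 libraries, against 21242 for FTH1. The 25 processed copies named FTH1P held 1.80% to 2.34% of the combined reads in the knockout libraries and 2.71% to 4.35% in Vector. The 16 named FTLP held at most 0.267%. How reads that match several places were handled is not given, so these shares do not bound the reads left out of FTH1 or FTL.

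**Figure D3:**
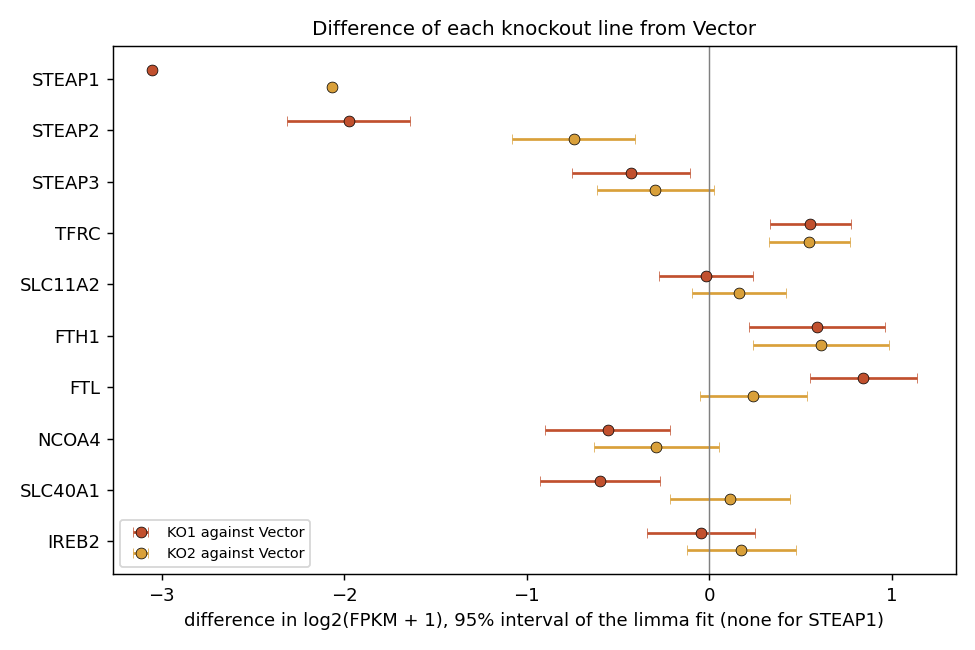
Difference of KO1 and of KO2 from Vector in log2(FPKM + 1) (x axis) for each gene (y axis), with the 95% interval of the limma fit for the 9 genes tested and points alone for STEAP1. STEAP2 lies at -1.98 and -0.74 below 0 with its intervals, and TFRC (0.56 and 0.55) and FTH1 (0.59 and 0.61) lie above 0.

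NCOA4, the receptor that carries ferritin to the lysosome (ENSG00000266412, chromosome 10, 46005088 to 46030714, minus strand), was lower in KO1. It stood at 26.2, 27.2 and 25.6 FPKM in KO1, at 29.4, 28.8 and 38.4 FPKM in KO2 and at 44.1, 42.6 and 31.9 FPKM in Vector. KO1 lay below Vector throughout, while KO2 replicate 3 was above Vector replicate 3. NCOA4 fell by 0.56 in KO1 (SE 0.15, limma adjusted p = 0.0198), and its value of -0.29 in KO2 did not pass (limma adjusted p = 0.188). The KO1 call was lost without Vector replicate 1 (-0.47), Vector replicate 2 (-0.50), KO1 replicate 1 (-0.55), KO1 replicate 2 (-0.58) or KO1 replicate 3 (-0.54), with a highest limma adjusted p of 0.0695. In KO2 it passed under 3 of 24 other settings, with a lowest limma adjusted p of 5.85e-05. Among them were the fits without Vector replicate 3 (-0.43, limma adjusted p = 0.0261) and without both libraries that stood apart (-0.56, limma adjusted p = 0.000208). Without both, 49.5% of all fitted genes were called. In KO2 against KO1 NCOA4 passed under 1 of the 24 (limma adjusted p = 0.0437).

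SLC40A1, ferroportin (ENSG00000138449, chromosome 2, 189560579 to 189583758, minus strand), was the lowest of the 10 genes in every group. It stood at 0.203, 0.341 and 0.150 FPKM in KO1, at 1.15, 1.10 and 0.799 FPKM in KO2 and at 1.12, 0.914 and 0.578 FPKM in Vector. KO1 lay below every other library, and KO2 overlapped Vector. These are few reads, 49 in KO1, 229 in KO2 and 191 in Vector over 3 libraries each, and the gene passed the filter only through KO2 and Vector. Its values are therefore given as a description without a p. The difference from Vector was -0.60 in KO1, with a KO1 mean 0.265 of the Vector mean, and 0.11 in KO2. The difference of KO2 from KO1 was 0.71. With limma-voom on the recovered reads the log2 difference of KO1 from Vector was -2.0.

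IREB2 (ENSG00000136381, chromosome 15, 78437431 to 78501456, plus strand) encodes iron regulatory protein 2, whose amount is set mainly by iron-dependent degradation of the protein. It stood at 6.62, 7.03 and 6.95 FPKM in KO1, at 7.51, 7.59 and 9.53 FPKM in KO2 and at 7.80, 7.89 and 5.82 FPKM in Vector. KO2 replicate 3 was the highest library and Vector replicate 3 the lowest, and neither line was separate from Vector. Its values of -0.04 in KO1 and 0.18 in KO2 did not pass (limma adjusted p = 0.825 and 0.356). Without both libraries that stood apart it was lower in KO1 by a difference of -0.17 (limma adjusted p = 0.0227), and in KO2 the direction turned at -0.05 (limma adjusted p = 0.483). In KO1 56.8% of all fitted genes were called there. IREB2 passed in KO1 under 2 of 24 other settings.

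The order of levels in FPKM differed between the groups. In KO1 STEAP1 was the 8th of the 10 genes, and its range did not overlap those of its neighbours in the order, SLC11A2 and STEAP2. In KO2 STEAP1 was the 6th and did not overlap TFRC above it, but overlapped IREB2 below it. In Vector STEAP1 (50.3 ± 10.7 FPKM, SD, n = 3) was the 3rd and overlapped both FTH1 (51.5 ± 12.4) and NCOA4 (39.5 ± 6.63). FTL was the 1st and FTH1 the 2nd in each group. The ratio of FTL to FTH1, both in FPKM, averaged 23.1 ± 1.19 in KO1, 15.0 ± 1.12 in KO2 and 19.8 ± 3.69 in Vector (SD, n = 3 each), and KO2 overlapped Vector at Vector replicate 3. Reads over the exon bases that FTH1 shares with BEST1 could have been left out, so its rank and this ratio are uncertain.

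Over the 9 libraries, the 5 protein-coding genes most like STEAP1 were DNAJB6, HENMT1, PPP4R3A, PLCB4 and CHEK2, among 10864 with a mean of at least 1 FPKM. Their Pearson r to STEAP1 in log2(FPKM + 1) ran from 0.994 for CHEK2 to 0.997 for DNAJB6. PLCB4, a phospholipase C, averaged 5.17 ± 0.268 FPKM in KO1, 9.52 ± 0.340 FPKM in KO2 and 28.2 ± 3.53 FPKM in Vector (SD, n = 3 each). STEAP2 had an r of 0.936 and was the 252nd in that order. All these values share libraries and 3 group means, so r describes the likeness only.

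Beyond the 10 genes, 134 genes of 6 iron-related lists were looked up, and 108 were fitted. Of these 23 were higher and 24 lower in KO1 against Vector (43.5% called, against 34.1% of all fitted genes), and 10 were higher and 31 lower in KO2 against Vector (38.0% called, against 27.9%). Their medians were 0.01 in KO1 and -0.16 in KO2. Without both libraries that stood apart 37 were higher and 39 lower in KO1 (70.4%, against 56.8% of all genes), and 22 were higher and 46 lower in KO2 (63.0%, against 49.5%).

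In the list of iron import, reduction and export, 13 of 22 genes were fitted, 4 were higher and 3 lower in KO1, and 4 were higher and 3 lower in KO2. Either line had 53.8% called, against 34.1% of all fitted genes in KO1 and 27.9% in KO2. The medians were 0.02 in KO1 and 0.25 in KO2. MELTF, melanotransferrin, an iron-binding surface protein, averaged 30.4 ± 0.831 FPKM in KO1, 8.71 ± 0.350 FPKM in KO2 and 3.93 ± 1.40 FPKM in Vector (SD, n = 3 each). It rose by 2.70 in KO1 (limma adjusted p = 5.25e-06) and by 1.01 in KO2 (limma adjusted p = 0.00224). SLC22A17, a receptor for lipocalin-2, averaged 1.01 FPKM in KO1, 6.82 FPKM in KO2 and 0.832 FPKM in Vector, and rose by 2.11 in KO2 (limma adjusted p = 1.08e-05), with 0.15 in KO1, which did not pass. The lysosomal channel MCOLN1, which can pass iron, rose by 0.86 in KO1 and 0.60 in KO2. BMP6, which induces hepcidin in the liver, fell by 0.43 in KO1 and by 1.43 in KO2. The ferric reductase CYBRD1 fell by 0.81 in KO2 and measured -0.27 in KO1, and the exocyst subunit EXOC6 fell by 0.57 in KO1 and measured -0.30 in KO2. TF, TFR2 and HAMP were too low to be fitted, at no more than 0.557 FPKM on average in any group. These counts became 5 higher and 4 lower in KO1 and 7 higher and 4 lower in KO2 without replicate 3 of Vector and of KO2. That is 69.2% and 84.6% called, against 56.8% and 49.5% of all fitted genes.

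In the list of iron sensing, iron chaperones and ferritin turnover, 15 of 18 genes were fitted, 3 were higher and 3 lower in KO1 (median 0.01), and 1 was higher and 3 were lower in KO2 (median -0.16). The share called was 40.0% in KO1 and 26.7% in KO2, against 34.1% and 27.9% of all fitted genes. EPAS1, the HIF-2 alpha subunit whose transcript carries an iron-responsive element, averaged 8.64 ± 0.0898 FPKM in KO1, 0.788 ± 0.0649 FPKM in KO2 and 1.40 ± 0.147 FPKM in Vector (SD, n = 3 each). It rose by 2.01 in KO1 (limma adjusted p = 8.84e-07) and fell by 0.42 in KO2 (limma adjusted p = 0.00824). PCBP4, of the iron chaperone family, rose by 0.67 in KO1 and by 0.97 in KO2. The autophagy enzyme ATG7 rose by 0.90 in KO1 and measured 0.29 in KO2, and HIF1A, a hypoxia factor, fell by 0.49 in KO1 and measured 0.14 in KO2. The glutaredoxin GLRX3 fell by 0.57 in KO2 and measured -0.14 in KO1. WDR45, an autophagy gene, fell by 0.97 in KO1 and by 1.01 in KO2. ACO1, which encodes the other iron regulatory protein, and FBXL5, which targets iron regulatory proteins for degradation, measured 0.12 and 0.26 in KO1 and -0.26 and 0.06 in KO2 and did not pass. Leaving out replicate 3 of Vector and of KO2 gave 5 higher and 5 lower in KO1 and 2 higher and 7 lower in KO2. The shares were then 66.7% and 60%, against 56.8% and 49.5% of all fitted genes.

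In the heme list 18 of 23 genes were fitted, 3 were higher and 6 lower in KO1 (median -0.04), and 0 were higher and 5 lower in KO2 (median -0.20). Called genes made up 50.0% in KO1 and 27.8% in KO2, against 34.1% and 27.9% of all fitted genes. ALAS1, the first enzyme of heme synthesis, averaged 64.1 ± 2.74 FPKM in KO1, 42.8 ± 4.95 FPKM in KO2 and 35.9 ± 2.07 FPKM in Vector (SD, n = 3 each) and rose by 0.82 in KO1 (limma adjusted p = 0.000558), with 0.24 in KO2, which did not pass. Biliverdin reductase BLVRB fell by 1.21 in KO1 and by 1.10 in KO2, and BLVRA fell by 1.56 in KO1 and measured -0.26 in KO2. The porphyrin transporter TMEM14C fell by 0.55 in KO1 and by 0.59 in KO2. UROD, of heme synthesis, rose by 0.44 in KO1 and measured 0.12 in KO2. Heme oxygenase HMOX1, which frees iron from heme, averaged 7.27 FPKM in KO1, 8.74 FPKM in KO2 and 11.6 FPKM in Vector, and fell by 0.58 in KO1 (limma adjusted p = 0.0365), with -0.35 in KO2, which did not pass. HMOX1 was named after its values were seen. The same counts without replicate 3 of Vector and of KO2 were 5 higher and 9 lower in KO1 and 3 higher and 8 lower in KO2. This made 77.8% and 61.1% called, against 56.8% and 49.5% of all fitted genes.

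In the list of iron-sulfur cluster assembly 27 of 28 genes were fitted, 7 were higher and 5 lower in KO1 (median -0.03), and 1 was higher and 8 were lower in KO2 (median -0.22). The called shares were 44.4% in KO1 and 33.3% in KO2, against 34.1% and 27.9% of all fitted genes. FDXR, ferredoxin reductase, averaged 9.32 ± 1.10 FPKM in KO1, 9.50 ± 1.04 FPKM in KO2 and 4.27 ± 0.910 FPKM in Vector (SD, n = 3 each) and rose by 0.98 in KO1 and by 1.0 in KO2, where it was the member called higher. CIAO2B, of the cytosolic assembly machinery, rose by 1.05 in KO1 and measured 0.30 in KO2. The co-chaperone HSCB fell by 1.20 in KO1 and by 0.77 in KO2, and the assembly protein ISCA2 fell by 0.91 in KO1 and by 0.57 in KO2. BOLA3 fell by 0.78 in KO2 and measured -0.48 in KO1. Left without replicate 3 of Vector and of KO2, the counts were 10 higher and 10 lower in KO1 and 4 higher and 10 lower in KO2. Calls then made up 74.1% and 51.9%, against 56.8% and 49.5% of all fitted genes.

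In the ferroptosis list 20 of 25 genes were fitted, 3 were higher and 4 lower in KO1 (median 0.08), and 1 was higher and 8 were lower in KO2 (median -0.32). As shares, 35.0% were called in KO1 and 45.0% in KO2, against 34.1% and 27.9% of all fitted genes. SLC3A2, the heavy chain of the cystine transporter, averaged 99.2 ± 7.5 FPKM in KO1, 25.0 ± 5.36 FPKM in KO2 and 40.8 ± 10.01 FPKM in Vector (SD, n = 3 each). It rose by 1.28 in KO1 (limma adjusted p = 0.00117) and fell by 0.68 in KO2 (limma adjusted p = 0.0305). SAT1, a polyamine acetyltransferase, fell by 1.26 in KO1 and by 1.23 in KO2, and GCH1, which makes tetrahydrobiopterin, fell by 0.77 in KO1 and measured -0.29 in KO2. The lysophospholipid acyltransferase LPCAT3 rose by 0.83 in KO2 and measured 0.10 in KO1. The lipid peroxidase GPX4 measured -0.26 in KO1 and -0.46 in KO2 and did not pass. Dropping replicate 3 of Vector and of KO2 gave 7 higher and 5 lower in KO1 and 1 higher and 13 lower in KO2. That is 60% and 70% called, against 56.8% and 49.5% of all fitted genes.

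FTH1 and FTL are themselves known targets of the oxidative stress factor NRF2. In the NRF2 target list 19 of 22 genes were fitted, 5 were higher and 5 lower in KO1 (median 0.03), and 3 were higher and 5 lower in KO2 (median 0.00). Calls covered 52.6% in KO1 and 42.1% in KO2, against 34.1% and 27.9% of all fitted genes. GCLM, of glutathione synthesis, rose by 0.89 in KO1 and measured -0.06 in KO2, and the thioredoxin reductase TXNRD1 rose by 0.82 in KO2 and measured -0.18 in KO1. SLC7A11, the cystine transporter chain on this list and on the ferroptosis list, rose by 1.35 in KO1 and measured -0.14 in KO2. OSGIN1 fell by 0.89 in KO1 and by 0.77 in KO2. EPHX1 rose by 1.01 in KO2 and measured 0.03 in KO1, while ME1 fell by 1.0 in KO1 and measured 0.44 in KO2. UGDH fell by 0.68 in KO2 and measured -0.27 in KO1. After replicate 3 of Vector and of KO2 were dropped, counts were 7 higher and 8 lower in KO1 and 5 higher and 7 lower in KO2. Shares became 78.9% and 63.2%, against 56.8% and 49.5% of all fitted genes.

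**Figure D4:**
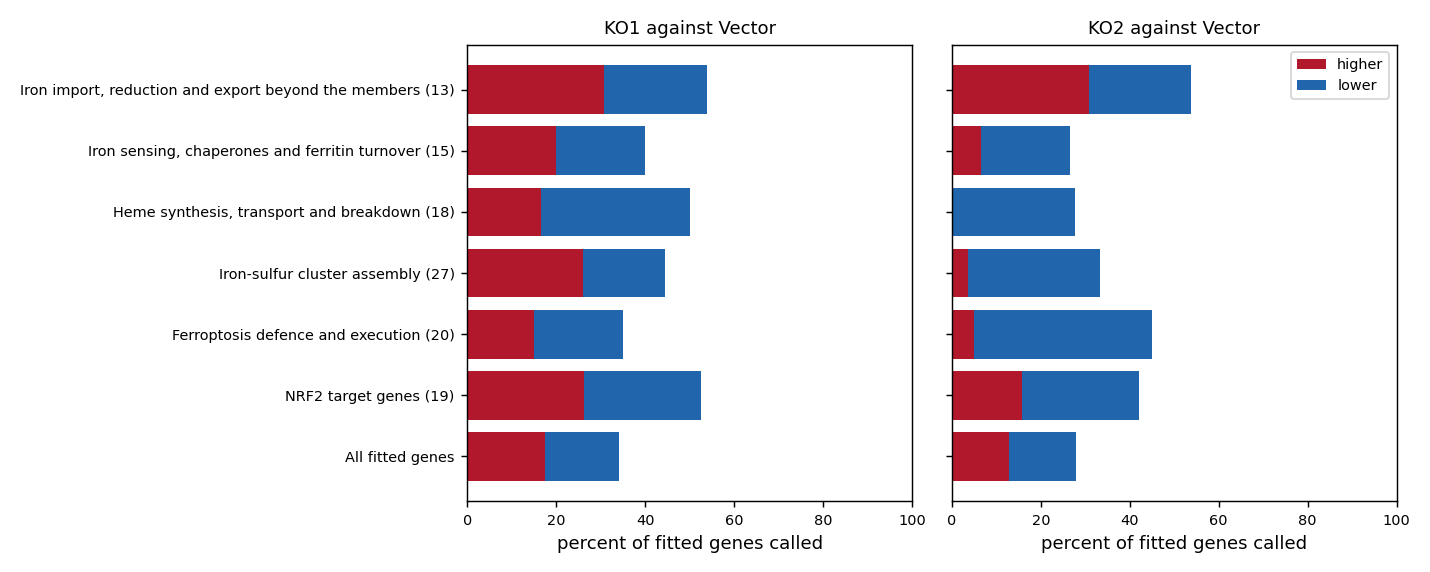
Share of fitted genes called higher or lower by limma (x axis, percent) in each iron-related list and among all 16426 fitted genes (y axis), for KO1 and KO2 against Vector, with the number of fitted genes in parentheses. In KO2 the heme, iron-sulfur and ferroptosis lists have 0, 1 and 1 genes called higher and 5, 8 and 8 called lower. That is 27.8%, 33.3% and 45.0% called, against 27.9% of all fitted genes, 12.9% higher and 15.0% lower. The import, sensing and NRF2 lists have 4, 1 and 3 called higher and 3, 3 and 5 called lower there. Their shares called are 53.8%, 26.7% and 42.1%. In KO1 the genes of the 6 lists have 23 called higher and 24 lower, where 17.4% and 16.7% of all fitted genes were.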

How the data were processed

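RNA of 9 H1299 libraries was measured by RNA sequencing. The deposited table holds FPKM as made by the authors, and the submitters' processing notes name hg38, featureCounts 1.5.0-p3, HISAT2 2.0.5 and CASAVA 1.6. The sources used here do not give the strand setting or how multi-mapping reads were handled. All 58735 identifiers were found in GENCODE 29 on GRCh38, which gave positions and exon lengths. FPKM times exon length gave whole reads for 100.0% of values within 0.02 reads.

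Values were fitted as log2(FPKM + 1) with limma 3.58.1 (R 4.3.3, trended empirical Bayes) over the 16426 genes averaging 0.5 FPKM or more, with the group as the only term. Each pathway gene named was among the up to 2 highest and 2 lowest called genes of its list in KO1 or KO2 with a mean of at least 1 FPKM, apart from STEAP4, TF, TFR2, HAMP, ACO1, FBXL5, HMOX1 and GPX4, which were named after their values were seen. The genes and lists were chosen with earlier results of these data known. Counts of pathway genes without Vector replicate 3 and KO2 replicate 3 were added after seeing the data. One gene that this rule picked is not reported here.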

Additional observations from a re-analysis of the deposited data

Results flagged for a closer look

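The limma comparison of KO2 against KO1 put 3 of 9 genes past the threshold, with SLC40A1 counted, where 30.9% of all fitted genes were called. STEAP2 was higher in KO2 than in KO1 by 1.23 (adjusted p = 0.000385), and FTL was lower by a difference of -0.60 (adjusted p = 0.00776). The third, SLC40A1, measured 0.71, but it has 49 reads in KO1 and passed the filter on low values only through KO2 and Vector, so its difference is a description. In each of these genes all 3 KO2 libraries lay on one side of all 3 KO1 libraries. This describes genes picked by the same comparison and adds no support to the calls. Groups of 3 libraries are too small for a test of single libraries that stand out.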

How the results depend on the processing

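Of 717 values of single genes under 24 other settings, 645 kept their direction and side of the threshold (for STEAP1, stayed within the spread), and 21 turned direction, none of them past the threshold. Of the rest, 33 lost a call, 15 gained one, and 3 values of STEAP1 moved beyond the spread. In KO1 against Vector 7 genes were called, against 3 at an adjusted p under 0.01 and 4 to 7 with 1 library left out. In KO2 against Vector 3 were called, against 7 with library weights, 6 without Vector replicate 3 and KO2 replicate 3, and 2 to 4 with 1 library left out. In KO2 against KO1 3 were called, against 5 without those libraries and 3 to 4 with 1 left out. The 7 in KO1 against Vector and the 3 in KO2 against KO1 include SLC40A1, which is described without a p. Leaving out Vector replicate 1 or any KO1 library gave the lowest KO1 count, and leaving out Vector replicate 1 or 2 or KO2 replicate 1 or 2 the lowest KO2 count. Over all genes 5609, 4586 and 5079 were called in the 3 comparisons, against 10779, 10061 and 9764 with library weights, 9335, 8138 and 7834 without both libraries, and 3079, 2362 and 2797 at an adjusted p under 0.01. A fit of KO2 and Vector alone called 2963. With 1 library left out the counts were 3705 to 7367, 3203 to 6531 and 3337 to 6756. The causes were not tested. TFRC in KO2 against KO1 turned to 0.10 with scaling by library total, 0.14 with quantile normalization, 0.17 with neighbours' medians subtracted, 0.10 with limma-voom, 0.053 with library weights and 0.029 without both libraries, and spanned -0.062 to 0.029 without 1 library. FTH1 there turned to -8.31e-05 with neighbours' medians subtracted and spanned -0.041 to 0.12 without 1 library. IREB2 turned to 0.026 in KO1 with neighbours' medians subtracted (-0.17 to 0.022 without 1 library), and in KO2 to -0.033 with library weights and -0.049 without both libraries. FTL in KO2 turned to -0.10 with neighbours' medians subtracted. Without 1 library, SLC11A2 in KO1 spanned -0.065 to 0.016 and SLC40A1 in KO2 -0.0050 to 0.21. Pairing was not shown: deviations of same-numbered libraries correlated at -0.202 to 0.142. A fit with the replicate number as a block called 7, 3 and 3 genes in the 3 comparisons and changed no call. Depth limits SLC40A1 most, with 49 reads in KO1.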
